A study of Mus musculus with 24 samples.

Results

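The metallothioneins and zinc transporters described here are 8 mouse genes: Mt1 and Mt2, the zinc-sensing transcription factor gene Mtf1, the exporter genes Slc30a1 and Slc30a10, and the importer genes Slc39a4, Slc39a8 and Slc39a14. They were chosen by symbol, and all 8 were found among the 23329 gene symbols of the deposited files. The estimated counts of all transcripts of a symbol were added up in each of 24 colon libraries, 4 in each of 6 groups. All mice were of strain C57Bl/6 and carried VilCre, a Cre recombinase driven by the villin promoter, which is active in gut epithelium. The control groups had genotype VilCre and the transgenic groups VilCre-CMVcaNrf2, which adds caNrf2, a transgene for NRF2 in active form. Epithelial cells came from control and transgenic mice without treatment. Colon wall, cut as pieces of 10 mm length at a distance of about 10 to 20 mm from the rectum, came from both genotypes, either without treatment or after Dextran Sulfate Sodium (DSS), a chemical that injures the colon lining. The sources used here do not give age, sex, DSS dose or duration, or how epithelial cells were obtained. The series text names 3 replicates per condition, whereas each group has 4 libraries here. The labels do not say that these came from separate animals, so p-values measure only sample spread, which may be partly technical.

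Metallothioneins are small cysteine-rich proteins that hold zinc and copper in the cell. When free zinc rises, MTF1 binds short metal response elements in the promoters of the metallothionein genes and of Slc30a1 and raises their transcription. Proteins of the SLC30 (ZnT) family move zinc out of the cytosol, and proteins of the SLC39 (ZIP) family move it in. In the gut, SLC39A4 takes up dietary zinc at the luminal membrane and SLC30A1 passes zinc on at the basolateral membrane. Metallothionein genes also respond to oxidants and glucocorticoids, and antioxidant response elements are the sites that NRF2 binds.

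Wall libraries held 20232309 to 154336039 estimated counts, and epithelial libraries 6683803 to 15399862. Nfe2l2, the gene that encodes NRF2, was measured first as a check of the labels. It lay at 139 to 203 CPM (counts scaled to library size) in control and 231 to 370 CPM in transgenic epithelial cells, without overlap. Untreated wall did not overlap either (99.5 to 146 and 148 to 238 CPM), and DSS wall overlapped narrowly (111 to 168 and 166 to 285 CPM). The sources used here do not say whether transgene reads were counted under Nfe2l2. Of 19 NRF2 target genes listed, 19 were fitted above 0 in each genotype comparison, with 0 called in epithelial cells, 3 in wall without DSS and 4 in wall with DSS. The mean log2 CPM of that list was 5.76 in replicate 2 of untreated transgenic wall, inside the control range of 5.29 to 5.98, against 7.06 to 7.56 in the other 3 libraries of its group. Smooth muscle markers had a mean log2 CPM of 0.41 to 3.11 in epithelial cells and 9.9 to 11.94 in wall, and epithelium markers 9.42 to 10.38 and 8.72 to 10.0. Control replicate 3 and transgenic replicate 1 of the epithelial cells stood apart from the other 6. Both had a colonocyte marker level of 9.31, against 5.92 to 7.6 elsewhere, endothelial levels of -0.84 and -1.23, against 2.0 to 3.7, and low tissue handling genes (5.58 and 5.4, against 8.09 to 9.01). The genotype differences of Mt1 and Mt2, the tissue difference of Slc30a10 and some counts of genes called are also given without both of them.

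In TPM (which also divides by transcript length), Mt1 was the highest of the 8 genes in all 6 groups, with group medians from 1240 in control DSS wall to 2450 in untreated transgenic wall. Mt2 was second in every group, with medians from 240 to 1060 TPM, and Slc39a4 the third, from 94.5 to 222 TPM. The other 5 genes were far lower. Slc39a8 had medians of 23.4 and 38.2 TPM in epithelial cells and 4.37 to 8.83 TPM in wall, Slc39a14 of 12.4 to 24 TPM, Slc30a1 of 7.01 to 15.7 TPM and Mtf1 of 3.82 to 13.3 TPM. The libraries of Slc39a14 and Slc30a1 overlapped in each wall group, so their order there was not settled. Slc30a10 was the lowest in every group, with medians of 0.465 to 2.4 TPM, and rested on as few as 5 counts in a library.

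**Figure D1:**
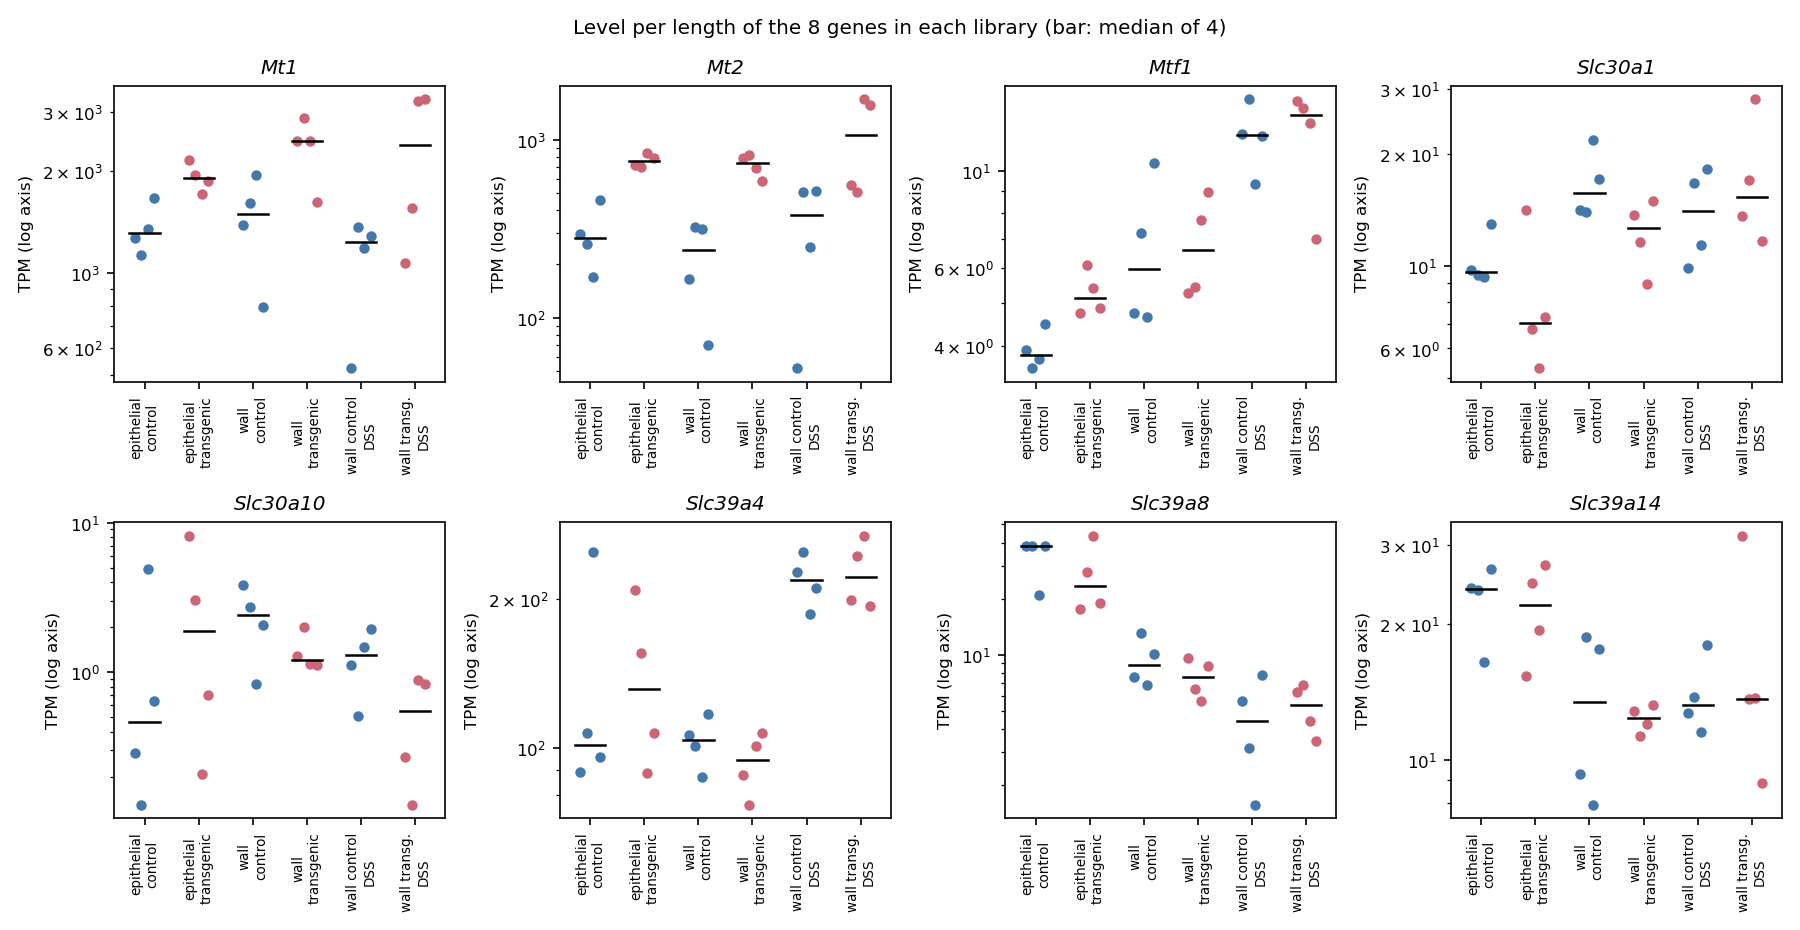
TPM of each of the 8 genes (log axes) in every library of the 6 groups; points are libraries, blue for control and red for transgenic, and bars are medians of 4. Mt1 medians lie between 1240 and 2450 TPM and Slc30a10 medians between 0.465 and 2.4 TPM, and the Slc39a4 medians of the DSS wall groups are 219 and 222 TPM.

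Mt1 and Mt2 lie in tandem on the plus strand of chromosome 8 (mm10), Mt2 at 94172618 to 94173567 and Mt1 at 94179089 to 94180327, with 5521 bases between them. Each has 1 transcript in the deposited files. The sequences before their starts are shown as description only, and their part in the values of the 2 genes was not tested. The 250 bases before each start are given 5′ to 3′ from RefSeq (GRCm38.p6, plus strand; Mt2 at chr8:94172368-94172617 and Mt1 at chr8:94178839-94179088), with matches to the metal response core (spelled below) in capitals.
Mt2: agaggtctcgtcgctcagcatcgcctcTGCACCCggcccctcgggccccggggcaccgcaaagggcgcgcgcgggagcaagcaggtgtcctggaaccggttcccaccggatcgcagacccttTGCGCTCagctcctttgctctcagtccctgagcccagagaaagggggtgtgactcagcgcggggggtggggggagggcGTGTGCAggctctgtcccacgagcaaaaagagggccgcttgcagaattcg
Mt1: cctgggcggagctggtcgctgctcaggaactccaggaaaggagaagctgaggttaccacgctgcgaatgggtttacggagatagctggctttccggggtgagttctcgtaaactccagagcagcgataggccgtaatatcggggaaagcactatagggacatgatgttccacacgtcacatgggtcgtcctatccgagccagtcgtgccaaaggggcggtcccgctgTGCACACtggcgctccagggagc
The core was searched as TGCACNC and TGCGCNC on both strands in windows that run from 250 bases before to 50 bases after the start. The Mt2 window held 4 matches, 3 of them before the start, and 0.517% of 32851 RefSeq windows held at least as many. The Mt1 window held 3 matches, 1 of them before the start, a number reached in 1.97% of windows, and 25.7% held any. The antioxidant response core TGACNNNGC, present in 12.4% of windows, matched once in the Mt2 window, as TGACTCAGC from 79 to 71 bases before the start, and not in the Mt1 window. Of the other members, Slc30a10 had 3 metal response matches, an overlapping pair on opposite strands among them. Slc30a1 had 2, a number reached in 7.11% of windows, and 1 antioxidant match. Mtf1 had neither, and the 2 Slc39a8 windows had 1 metal response and 1 antioxidant match between them. Slc39a4 and Slc39a14 had no entry. A match is a run of letters and not a shown binding site, and GENCODE vM21 lists further Mt1 starts downstream of the one used here. Sequence before those starts may lie outside the window searched. The matches in the Mt1 and Mt2 windows therefore do not compare all promoter sequence of the 2 genes, and an Mt1 site outside its window would be missed.

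In epithelial cells the clearest difference between genotypes among the 8 genes was in Mt2, which was higher in all 4 transgenic libraries, yet it did not pass the test over all genes. Mt2 stood at 75.85, 66.68, 56.84 and 110.3 CPM in control (replicates 1 to 4) and at 234.8, 183.4, 218.8 and 212.4 CPM in transgenic libraries. The lowest transgenic library was thus above the highest control library. The log2 difference was 1.46 ± 0.21 (SE), with an unadjusted p of 5.82e-05 and an adjusted p of 0.219 in edgeR's quasi-likelihood test. Of 12941 genes tested, 0 were called in this comparison (0%), 1344 had an unadjusted p below 0.05, and DESeq2 called 215. DESeq2 gave Mt2 an adjusted p of 5.62e-07 and limma voom with quality weights 0.00813. In edgeR, Mt2 passed without control replicate 3 (log2 difference 1.34, adjusted p 0.0479), and without control replicate 3 and transgenic replicate 1 (1.28, adjusted p 0.0105).

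The difference in Mt1 was smaller. It lay at 315.5, 282.6, 437.2 and 392.0 CPM in control and at 684.8, 491.2, 431.4 and 484.9 CPM in transgenic epithelial cells. Transgenic replicate 3 fell inside the control range and the other 3 were above it. The log2 difference was 0.55 ± 0.20, with an adjusted p of 0.393 (0.0357 in voom, and 0.0492 without control replicate 3 and transgenic replicate 1). These are bulk libraries, so more RNA per cell and a larger share of cells that express a gene cannot be told apart.

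In untreated colon wall the same pair showed the same order of sizes. Mt2 was at 48.98, 87.0, 96.59 and 15.95 CPM in control and at 211.8, 238.2, 185.3 and 164.0 CPM in transgenic libraries, without overlap. Its log2 difference was 1.69 ± 0.64, with an adjusted p of 0.329 (0.0125 in voom). Mt1 was at 396.7, 422.1, 583.6 and 174.5 CPM in control and at 639.1, 808.3, 631.9 and 438.3 CPM in transgenic wall, with only transgenic replicate 4 inside the control range. The log2 difference of Mt1 was 0.68 ± 0.44, with an adjusted p of 0.648. The edgeR test called 0 of the 8 genes here, against 0.224% of 16074 genes. Of the 8, 1 had an unadjusted p below 0.05, beside 1681 of the 16074. DESeq2 called 0 of the 8 and voom 1, where voom called 2491 genes in all. Groups did not overlap for Mt2 only, 1 of 8, against 6.64% of all genes.

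Replicate 2 of untreated transgenic wall, the library whose NRF2 target level was within the control range, held the highest Mt1 and Mt2 values of its group. Single libraries of untreated wall, this one included, were left out in turn in edgeR. The log2 genotype difference then ran from 1.37 to 1.96 for Mt2 (lowest adjusted p 0.276) and from 0.43 to 0.91 for Mt1 (lowest 0.52). Replicate 4, the lowest for both genes in each untreated wall group, also had the lowest glucocorticoid response level of its group, 5.08 in control and 5.19 in transgenic wall as mean log2 CPM, against 5.82 to 6.38 in the other 6 libraries. Replicate 4 of every wall group also has an identifier prefix that the other wall libraries lack, and its meaning is not given. In untreated wall, the prefix and replicate 4 cannot be told apart. With DSS, transgenic replicate 4 was the highest of its group for Mt1 (971.3 CPM) and Mt2 (478.1 CPM). The tissue handling and heat shock list lay at 4.3 to 5.68 in untreated transgenic and 5.9 to 6.39 in untreated control wall, without overlap. The part of these 2 lists in the metallothionein values was not tested.

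With DSS the transgenic libraries spread widely. Mt2 was at 12.1, 123.7, 67.47 and 126.5 CPM in control DSS wall and at 113.3, 117.8, 427.4 and 478.1 CPM in transgenic DSS wall. Mt1 was at 118.0, 323.5, 313.8 and 306.8 CPM in control DSS and at 209.4, 348.6, 799.5 and 971.3 CPM in transgenic DSS wall. For both genes, transgenic replicates 3 and 4 were above every control library and replicate 1 was inside the control range. Replicate 2 was inside it for Mt2 and just above it for Mt1. The log2 differences were 1.78 ± 0.64 for Mt2 and 1.13 ± 0.44 for Mt1, both with an adjusted p of 1 in edgeR, and 0 of the 8 genes were called, against 0.0933% of all genes. None of the 8 had groups without overlap, 0 of 8 against 1.67% of all genes. Unadjusted, 2 of the 8 were below 0.05, beside 407 of 16074 genes, and DESeq2 and voom called 0 of the 8.

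In the 4 transgenic DSS libraries the NRF2 target level was 6.18, 6.74, 7.34 and 7.57 as mean log2 CPM for replicates 1 to 4, lowest in the library lowest for both metallothioneins and highest in the library highest for both. In untreated transgenic wall the list stood at 7.56, 5.76, 7.33 and 7.06, lowest in the library highest for both. The part of this list in the metallothionein values was not tested. Averaged over both wall treatments, 8 libraries against 8, the log2 difference was 1.74 ± 0.45 for Mt2 and 0.90 ± 0.31 for Mt1, with adjusted p of 0.222 and 0.634. No member was called in that average, 0 of 8 against 0.274% of all genes, and DESeq2 and voom called 0 of the 8. Below an unadjusted p of 0.05 were 3 of 8, beside 770 of 16074 genes. The 2 wall genotype comparisons are its parts and share its samples.

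DSS itself left no called difference in either metallothionein. The adjusted p was 0.314 for Mt1 and 0.622 for Mt2 in control wall, and 0.853 and 0.528 in transgenic wall. The values of Mt1 in control DSS replicates 2 to 4 lay within 306.8 to 323.5 CPM, and replicate 1 was far below at 118.0 CPM. Mt2 was lowest in the same library.

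The ratio of Mt1 to Mt2 TPM, examined after the values were seen and given without a test, separated the genotypes in both untreated tissues. It was 4.289, 4.37, 7.932 and 3.664 in control and 3.008, 2.761, 2.033 and 2.355 in transgenic epithelial cells. In untreated wall it was 8.351, 5.004, 6.231 and 11.28 in control and 3.112, 3.499, 3.517 and 2.756 in transgenic libraries. Every transgenic ratio was below every control ratio of the same tissue. No share of such ratios over all gene pairs was computed. For single genes, groups did not overlap in 7.26% of cases in epithelial cells and 6.64% in untreated wall. Mt2 alone was among these in both, so the ratio is not a separate result. In DSS wall the ratios were 10.05, 2.698, 4.796 and 2.501 in control and 1.906, 3.051, 1.929 and 2.095 in transgenic libraries, and overlapped. Most estimated counts of the 2 genes were not whole, so some reads were divided with other transcripts; which ones was not tested.

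**Figure D2:**
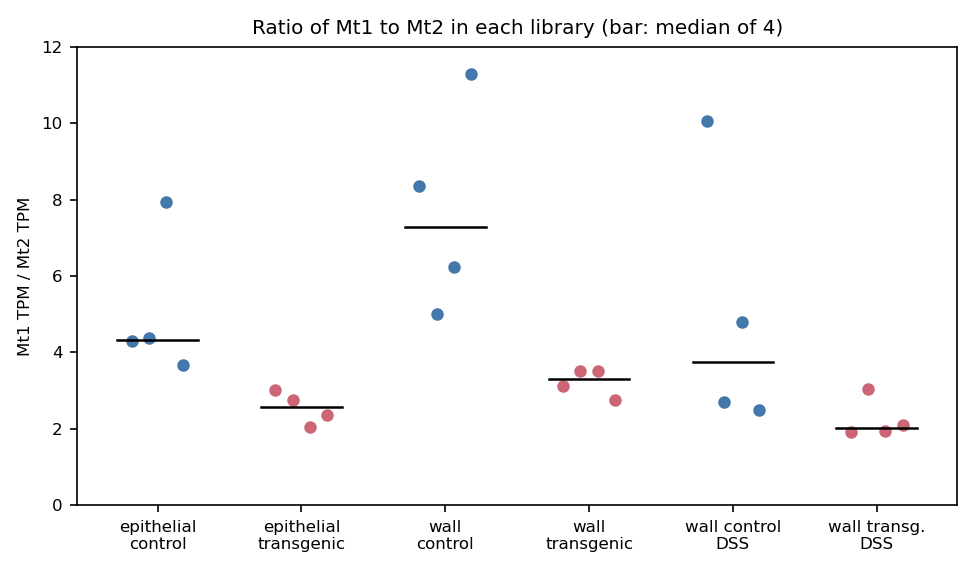
Ratio of Mt1 TPM to Mt2 TPM in each library; points are libraries, bars are medians of 4, blue for control and red for transgenic. Transgenic ratios are 2.033 to 3.008 in epithelial cells and 2.756 to 3.517 in untreated wall, below all controls of the same tissue, and in DSS wall the groups overlap.

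Markers of many cell types also differed with DSS, where 39.2% of all genes were called in control and 41.2% in transgenic wall. In control wall 7 of 7 endothelial and 7 of 7 fibroblast markers were higher (median log2 differences 1.5 and 1.43), as were 6 of 7 enteric neuron and glia, 6 of 6 macrophage and 6 of 6 neutrophil markers (1.24, 1.92 and 3.42). Crypt and proliferation markers were lower, 7 of 8 (-2.18). In transgenic wall the same lists had 7 of 7, 7 of 7, 7 of 7, 6 of 6 and 5 of 6 higher, and 4 of 8 crypt markers lower (-1.55). Endothelial markers had a mean log2 CPM of 3.55 to 3.98 in untreated and 4.82 to 5.23 in DSS wall, fibroblast markers 6.68 to 6.99 and 7.71 to 8.57, and crypt markers 5.17 to 5.8 and 1.86 to 4.02, each without overlap. The part of these cell types in the DSS results of the 8 genes was not tested.

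Mtf1, which encodes the zinc-sensing activator of metallothionein genes, rose with DSS in both genotypes. It lies on chromosome 4 at 124802549 to 124849800, plus strand. In control wall it went from 22.87, 31.81, 23.5 and 38.55 CPM untreated to 46.06, 57.8, 41.31 and 48.06 CPM with DSS, without overlap. The log2 difference was 0.73 ± 0.20, adjusted p 0.0106. In transgenic wall it went from 23.26, 25.81, 33.64 and 40.78 CPM to 47.5, 52.25, 53.39 and 35.12 CPM, where DSS replicate 4 overlapped the untreated range, and the log2 difference was 0.61 ± 0.20, adjusted p 0.0256.

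Mtf1 was lower in epithelial cells than in untreated wall, with a log2 difference of -0.54. With DSS, the endothelial and fibroblast markers above were higher in the wall libraries. Epithelium markers had median log2 differences of -0.36 in control and -0.17 in transgenic wall. The part of these cell types in the Mtf1 values was not tested. The DSS call of Mtf1 in control wall was lost without untreated control replicate 3 (log2 difference 0.57, adjusted p 0.0536). The transgenic call was lost without untreated replicate 1 or 2 or without DSS replicate 1, 2 or 3 (adjusted p 0.0602 to 0.0824). In epithelial cells Mtf1 was at 16.31, 14.94, 20.36 and 17.66 CPM in control and at 25.44, 25.76, 22.64 and 21.16 CPM in transgenic libraries, without overlap. Its log2 difference of 0.46 ± 0.16 had an adjusted p of 0.381 (0.0331 in voom). With Mt2 it made 2 of 8 genes whose epithelial groups did not overlap, against 7.26% of all genes. In untreated wall the means of control and transgenic libraries were 29.2 and 30.9 CPM (adjusted p 0.936).

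Slc30a1, the zinc exporter of the cell surface and itself a known MTF1 target, was not called for genotype or DSS. It lies on chromosome 1 at 191906781 to 191913247, plus strand. Epithelial values were 27.78, 27.05, 34.82 and 34.76 CPM in control and 51.82, 19.41, 15.12 and 21.53 CPM in transgenic libraries. Transgenic replicate 1, which stood apart in colonocyte markers, was above all controls, and the other 3 were below all controls.

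In wall Slc30a1 was at 46.66, 42.05, 75.28 and 43.54 CPM in untreated control and at 25.62, 45.4, 34.42 and 49.6 CPM in control DSS libraries. The transgenic values were 41.12, 37.57, 26.51 and 46.58 CPM untreated and 30.58, 43.72, 79.84 and 39.97 CPM with DSS. All 4 groups overlapped, and 1 library in untreated control and 1 in transgenic DSS wall were high. The DSS effect was larger in transgenic than in control wall by 0.78 ± 0.40 on the log2 scale, the smallest p of the 8 genes in that interaction test, but with an adjusted p of 0.702. The interaction test called 0 of 8 members and 0% of 16074 genes, with 1279 genes, and 0 of the 8, below an unadjusted p of 0.05. DESeq2 called 40 genes and voom 113, and 0 members.

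Slc30a10, known best as a manganese exporter, lies on chromosome 1 at 185454848 to 185468761, plus strand. Across epithelial libraries it was uneven, at 0.93, 0.41, 20.36 and 1.92 CPM in control and 33.18, 9.85, 0.68 and 2.32 CPM in transgenic libraries. Its highest values were in control replicate 3 and transgenic replicates 1 and 2, the 3 libraries with the highest colonocyte marker level (9.31, 9.31 and 7.6). The genotype difference of 0.96 ± 1.31 (adjusted p 0.893) turned to -0.42 without transgenic replicate 1. The part of colonocyte content in it was not tested.

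In wall Slc30a10 was lowest with DSS in transgenic mice. It was at 14.07, 9.12, 3.22 and 5.86 CPM in untreated control, 4.32, 7.22, 3.76 and 3.86 CPM in untreated transgenic, 3.25, 1.54, 4.98 and 5.89 CPM in control DSS and 0.67, 0.36, 2.82 and 3.18 CPM in transgenic DSS wall. Every transgenic DSS library was below every untreated transgenic library. The DSS difference was -1.46 ± 0.59 in transgenic wall (adjusted p 0.0569) and -1.04 ± 0.57 in control wall (adjusted p 0.158), and neither passed in edgeR. In transgenic wall it passed without DSS replicate 3 (adjusted p 0.0404) or 4 (0.0262), and in voom (0.0137). Voom also called it in control wall (adjusted p 0.0365). The 2 DSS differences themselves differed by -0.42 ± 0.81 (adjusted p 0.983).

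Slc39a4, the importer of dietary zinc at the luminal surface, had the smallest adjusted p of the 8 genes with DSS in both genotypes. It lies on chromosome 15 at 76612383 to 76616852, minus strand. In control wall it stood at 143.8, 126.1, 124.4 and 122.7 CPM untreated and at 243.3, 282.0, 235.3 and 238.7 CPM with DSS. In transgenic wall it stood at 109.4, 102.8, 124.3 and 138.8 CPM untreated and at 186.1, 260.5, 317.5 and 275.1 CPM with DSS. Every DSS library was above every untreated library of either genotype. The rise was 0.95 ± 0.15 on the log2 scale in control (adjusted p 0.000353) and 1.13 ± 0.15 in transgenic wall (adjusted p 9.73e-05), and no alternative ended either call.

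The 2 rises differed by 0.18 ± 0.21 (adjusted p 0.948). Slc39a4 is known to be made by epithelium. Of 9 epithelium markers 0 were higher and 2 lower with DSS in control wall (median log2 difference -0.36), and 0 were called in transgenic wall (median -0.17). Of 8 colonocyte markers 1 was higher in control wall, and 1 higher and 2 lower in transgenic wall. Enteroendocrine markers were higher in 4 of 5 cases in control (median 0.69) and 2 of 5 in transgenic wall (0.53), and goblet cell markers in 1 of 6 (0.4) and 2 of 6 (0.61), while the crypt markers were lower as given above. The part of epithelial composition in the Slc39a4 values was not tested. In epithelial cells Slc39a4 was at 105.1, 127.5, 386.1 and 106.6 CPM in control and 315.3, 186.5, 105.3 and 131.1 CPM in transgenic libraries, high in the same 3 libraries as Slc30a10 and not called for genotype (adjusted p 0.996).

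**Figure D3:**
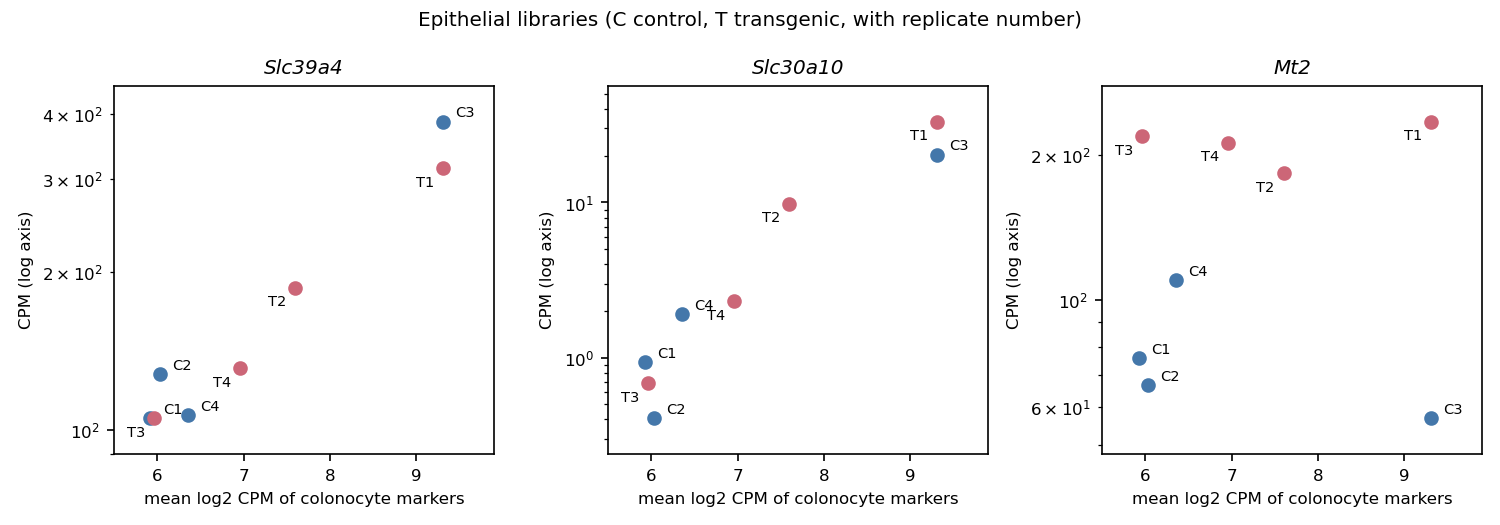
CPM of Slc39a4, Slc30a10 and Mt2 (log axes) in the 8 epithelial libraries against the mean log2 CPM of 8 colonocyte markers; blue C points are control and red T points transgenic, with replicate numbers. Slc39a4 and Slc30a10 are highest in C3, T1 and T2, which have the highest marker levels, and Mt2 is at 56.84 CPM in C3 and 234.8 CPM in T1.

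Slc39a8, an importer of zinc, manganese and iron, moved the other way with DSS. It lies on chromosome 3 at 135825491 to 135888572, plus strand, with 3 transcripts in the files. In control wall it was at 15.66, 24.66, 14.95 and 16.09 CPM untreated and at 9.19, 5.43, 3.02 and 13.31 CPM with DSS, without overlap. It fell by 1.19 ± 0.33 on the log2 scale (adjusted p 0.0105), and no alternative ended the call. In transgenic wall it was at 18.31, 13.35, 10.66 and 16.93 CPM untreated and at 8.97, 11.18, 7.8 and 7.43 CPM with DSS, where 1 DSS library overlapped the untreated range. There the difference of -0.74 ± 0.33 had an adjusted p of 0.0824 (0.049 in DESeq2, and 0.0185 when only the 2 groups were fitted). The 2 DSS differences differed by 0.45 ± 0.47 (adjusted p 0.928), so a difference between genotypes was not shown. Slc39a8 was higher in epithelial cells than in untreated wall, by 1.88 on the log2 scale. With DSS, crypt markers were lower and endothelial and fibroblast markers higher in the wall libraries. Epithelium markers had median log2 differences of -0.36 in control and -0.17 in transgenic wall, and colonocyte markers of -0.08 and -0.31. The part of these cell types in the Slc39a8 values was not tested.

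Slc39a14 encodes a related importer of zinc, iron and manganese. It lies on chromosome 14 at 70303467 to 70351424, minus strand, with 3 transcripts in the files. Its total did not pass for genotype or DSS. The estimated split of that total between transcripts was not tested. In transgenic wall 1 transcript held 26.26 to 36.1% of the counts untreated and 56.32 to 76.3% with DSS. In control wall the same transcript held 27.24 to 47.69% and 46.88 to 51.15%, which overlapped. Wall values were 28.62, 52.67, 25.57 and 41.67 CPM in untreated control, 35.85, 34.27, 33.22 and 38.36 CPM in untreated transgenic, 31.01, 35.15, 32.6 and 46.1 CPM in control DSS and 66.41, 32.74, 36.49 and 28.52 CPM in transgenic DSS libraries. Apart from 66.41 CPM in transgenic DSS replicate 1, all values lay between 25.57 and 52.67 CPM. Epithelial values were 64.47, 63.68, 57.59 and 66.79 CPM in control and 52.28, 66.86, 51.96 and 74.99 CPM in transgenic libraries.

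Over the set, DSS called 3 of 8 members in control wall, 2 higher and 1 lower, where 39.2% of all genes were called, 23.1% higher and 16.1% lower. In transgenic wall 2 of 8 were called, both higher, where 41.2% of all genes were called, 23.1% higher and 18.1% lower. These shares are near the background. Groups did not overlap for 3 of 8 in control wall, against 33.3%, and for 2 of 8 in transgenic wall, against 35%. The median log2 difference of the 8 genes was -0.23 in control and 0.28 in transgenic wall, beside 0.06 and 0.01 over all genes. For genotype the medians of the 8 were 0.24 in epithelial cells, -0.09 in untreated and 0.18 in DSS wall, beside 0.0, -0.02 and -0.02 over all genes. Both DSS comparisons were read from 1 fit, and each shares untreated or DSS samples with a genotype comparison.

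**Figure D4:**
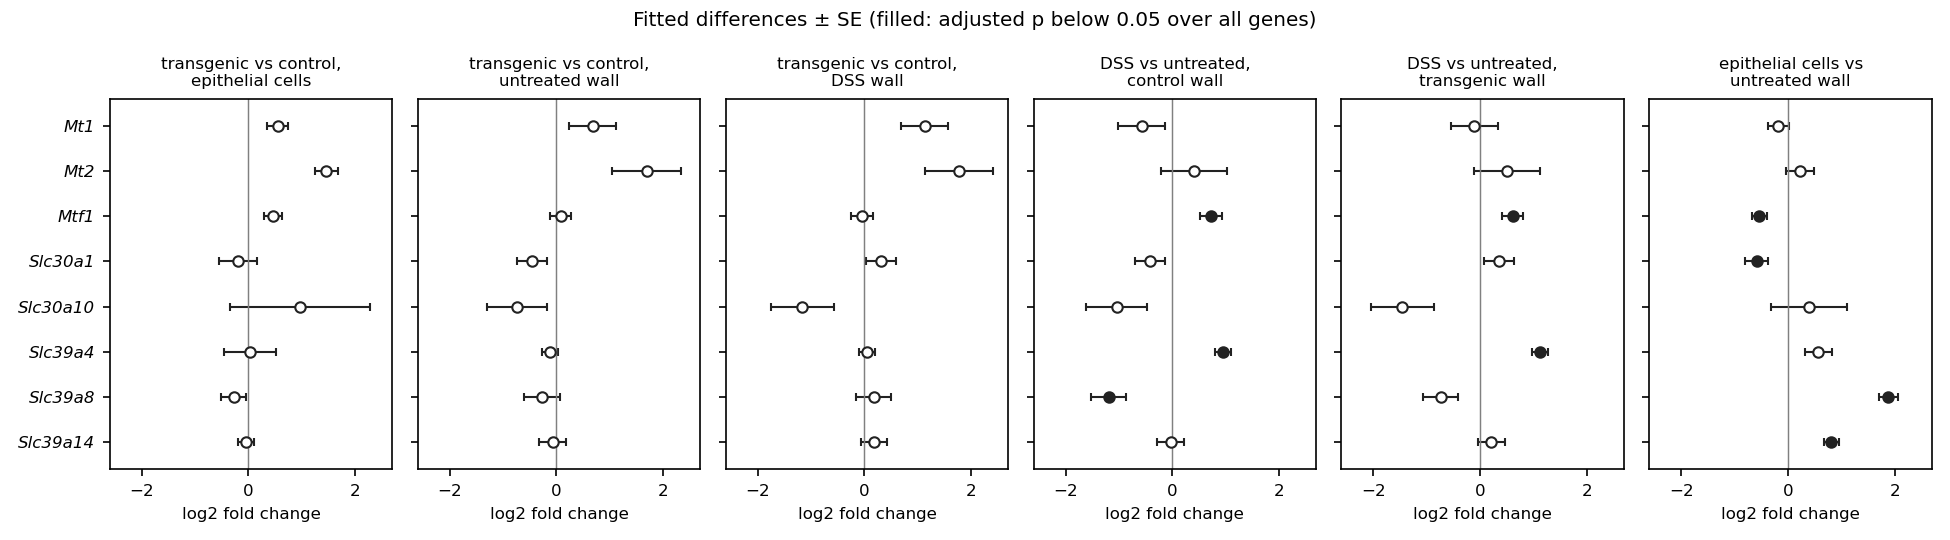
Fitted log2 differences of the 8 genes (points) with SE (bars) in 6 comparisons; filled points have an adjusted p below 0.05 over all genes in edgeR. Mt2 differs by 1.46 to 1.78 between genotypes and is open in all 3 panels, while Slc39a4 with DSS is filled at 0.95 and 1.13.

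Between epithelial cells and untreated wall, 4 of 8 genes were called, 2 higher and 2 lower in epithelial cells, against 55.3% of 15073 genes, 27.4% higher and 27.9% lower. In this fit, which scales both tissues together, Slc39a8 was higher in every epithelial library (37.78 to 80.09 CPM) than in every wall library (10.57 to 24.45 CPM). Its log2 difference was 1.88 ± 0.18 (adjusted p 3.11e-07). It was the 1 gene of 8 without overlap, against 23.4% of all genes. Slc39a14 was also higher in epithelial cells, by 0.81 ± 0.14 (adjusted p 0.000129), and Mtf1 was lower, with a log2 difference of -0.54 ± 0.14 (adjusted p 0.00352). Slc30a1 was lower, at -0.59 ± 0.22 (adjusted p 0.0284), a call that was lost without any 1 of 6 libraries (untreated control wall 3, epithelial control 1 or 2, or epithelial transgenic 2, 3 or 4; adjusted p 0.0502 to 0.059).

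Mt1 and Mt2 were not called between the tissues (adjusted p 0.454 and 0.474). Slc39a4 missed the threshold at 0.57 ± 0.26 (adjusted p 0.0687). It passed without epithelial control 1 or 4 or transgenic 3 (adjusted p 0.0342 to 0.0423). With single libraries left out in edgeR, its difference ran from 0.21 to 0.67 (adjusted p up to 0.332). Other tools and settings gave 0.02 to 0.56 (adjusted p 0.0981 to 0.887). Its highest values here were in epithelial control 3 (370.5 CPM) and transgenic 1 (306.6 CPM), which stood apart in colonocyte markers. Slc30a10 had no stable direction. Its difference was 0.40 ± 0.71, and -1.58 with an adjusted p of 0.0152 when epithelial control 3 and transgenic 1 were left out. The handling genes ran from 5.4 to 9.01 in epithelial cells and from 4.3 to 6.39 in untreated wall as mean log2 CPM, and the epithelial libraries were the shallower ones. Tissue, cell separation and depth cannot be told apart here. A test of the genotype difference between the tissues called no member by edgeR (0 of 8, 0% of 15073 genes; smallest adjusted p of the 8 was 0.806). In that test 0 of the 8 and 1203 genes had an unadjusted p below 0.05, and DESeq2 and voom called 0 of the 8.

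Among the other metallothionein and zinc transporter genes, 17 of 21 listed were tested in wall. None was called for genotype in epithelial cells (16 tested) or wall. In epithelial cells, untreated wall and DSS wall, 0, 2 and 0 of them had an unadjusted p below 0.05. Over all genes these numbers were 1344 of 12941, 1681 of 16074 and 407 of 16074. With DSS, 3 were higher and 1 lower in control wall, where 23.1% of all genes were higher and 16.1% lower. In transgenic wall 4 were higher and 2 lower, where the shares of all genes were 23.1% and 18.1%. Slc39a6, an importer of the cell surface, rose in both, by 0.91 ± 0.19 on the log2 scale (adjusted p 0.00225; mean 11.3 to 21.1 CPM) and 0.94 ± 0.20 (adjusted p 0.00164). Its close relative Slc39a10 rose by 0.77 ± 0.29 (adjusted p 0.0452) in control and 1.06 ± 0.29 (adjusted p 0.0097) in transgenic wall, and Slc39a1 by 0.32 ± 0.12 (0.0422) and 0.50 ± 0.12 (0.00408). The control wall calls of Slc39a10 and Slc39a1 were lost in 11 and 12 of 17 alternatives.

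Slc39a7, an importer of the secretory pathway that empties zinc into the cytosol, fell by 0.53 ± 0.13 in control wall (adjusted p 0.0049). Slc39a5, a basolateral importer, fell by 1.17 ± 0.30 in transgenic wall (adjusted p 0.00548; mean 79.5 to 35.3 CPM), where Slc30a5 also fell, by 0.36 ± 0.11 (adjusted p 0.0159), and Slc30a4 rose by 0.60 ± 0.22 (0.0383, lost in 7 of 17 alternatives). Epithelial cells had 8 of the 17 higher and 1 lower than untreated wall, against 27.4% and 27.9% of all genes. Mt3, the metallothionein best known from brain, differed by 3.24 ± 0.28 (adjusted p 9.23e-08), from a mean of 1.21 CPM in wall to 11.4 CPM. Slc39a11 was higher by 1.38 ± 0.10 (adjusted p 8.76e-09) and Slc39a7 by 0.86 ± 0.12 (1.58e-05), and Slc39a6 was lower, at -1.21 ± 0.16 (9.61e-06).

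Of 16 other metal transport genes, 3 were higher and 2 lower with DSS in control wall and 4 higher and 1 lower in transgenic wall. Of all genes, 39.2% were called in control and 41.2% in transgenic wall. Cp, which encodes the copper-carrying ferroxidase ceruloplasmin, rose by 2.05 ± 0.37 (adjusted p 0.00072) and 2.21 ± 0.37 (0.000389). Slc11a1, an iron and manganese transporter of phagocytes, rose by 1.81 ± 0.35 (0.00106) and 1.60 ± 0.35 (0.00207). Macrophage markers rose in level over the same groups, from 3.13 to 4.09 in untreated to 4.28 to 5.85 in DSS wall as mean log2 CPM of 6 markers (0 of them at 0), and their part in these values was not tested. Of 12 listed zinc enzymes of gut epithelium, 2 were higher and 2 lower in control wall and 1 higher and 1 lower in transgenic wall, beside those shares of all genes. The alkaline phosphatase gene Alpl was higher in both, by 1.73 ± 0.34 (0.00139, mean 2.56 to 8.5 CPM) and 1.86 ± 0.35 (0.000841). Alpl was not among the 11 of these 12 genes that were expressed enough to be tested in epithelial cells. Alpi, the other listed alkaline phosphatase gene, was not called in control wall (0.69 ± 0.44, adjusted p 0.227). The cells in which Alpl was higher were not identified.

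Likeness was described over 24 libraries, each minus its group mean, among 16001 genes, with no p, since the libraries share depth and composition differences. The gene most like Mt1 was Mt2, with a Pearson r of 0.88 (Spearman rho 0.86), followed by Actg1 and Tmem223 (both r 0.86). For Mt2 the order was Mt1, then Sgk1, a glucocorticoid-induced kinase gene (r 0.8), and Tuba1c (0.77). Slc39a4 was closest to Mvp (0.98), the citrate transporter gene Slc13a2 (0.97) and Mgrn1 (0.96), and Slc30a10 to Gm2061 (0.88), Prelid2 (0.86) and Fam162a (0.85). Slc30a1 was closest to Slc17a5 (0.85), Mtf1 to Mef2d and 8430427H17Rik (both 0.85), Slc39a8 to Upk1b (0.82) and Slc39a14 to Lpgat1 (0.83). Within the set, Slc30a10 and Slc39a4 reached 0.78 (rho 0.54), Mt1 and Slc30a1 0.56, and Mtf1 had -0.35 with Mt1 and -0.25 with Mt2. Slc30a10 and Slc39a4 were both highest among epithelial libraries in control 3 and transgenic 1, which stood apart in colonocyte markers. No correlation given here was computed without those libraries.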

How the data were processed

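Per the file headers, the authors deposited for each of 24 libraries an estimated (expected) count and a TPM value per RefSeq transcript. The submitters' processing notes list RSEM 1.2.11, FastQC and the build mm10. The sources used here do not give the aligner, strand setting or RefSeq release, so antisense reads could not be separated. The deposited expected counts were summed per symbol, rounded, and tested with edgeR 4.0.16 (R 4.3.3; TMM scaling, filterByExpr by group, quasi-likelihood F test, Benjamini-Hochberg over all genes tested, adjusted p below 0.05). Epithelial (8), wall (16) and tissue (16) libraries were fitted separately, and SE is the absolute log2 fold change over the square root of F. The authors' TPM values, summed per symbol, served for levels between genes and, as log2(TPM + 0.5), for an alternative in limma 3.58.1. DESeq2 1.42.0, limma voom, RLE scaling, no filter, a replicate block, an identifier prefix shared by the 4 replicate 4 wall libraries, and leaving out libraries were the other alternatives. Within groups, 0 of 36 library pairs differed by as little as sampling noise. The steps were tested on simulated counts. Some items are not reported here. The members and 22 gene lists were chosen with earlier results of these data known. Named are the 8 members, list genes past the threshold (at most 4 per list and direction, all for zinc genes) and up to 3 genes most like each member.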

Additional observations from a re-analysis of the deposited data

Results flagged for a closer look

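Values far from the other 3 libraries of their group were found in 10 of 54 cases examined (1 gene or ratio in 1 group). Chance gives about 5% of groups if values are independent and normally spread. The cases share libraries and the ratios reuse Mt1 and Mt2, so no excess is read from this number. Of these, 4 were in epithelial control replicate 3, the library with a colonocyte marker level of 9.31: Slc30a10 at 20.36 CPM (others 0.406 to 1.92), Slc39a4 at 386.1 CPM (others 105 to 128), Slc39a8 at 50.11 CPM (others 67.1 to 70.3), and a ratio of Mt1 to Mt2 TPM of 7.932 (others 3.66 to 4.37). The part of colonocyte content in these values was not tested.

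In untreated control wall, Slc30a1 was at 75.28 CPM in replicate 3 (others 42 to 46.7), Slc39a8 at 24.66 CPM in replicate 2 (others 14.9 to 16.1) and Slc39a4 at 143.8 CPM in replicate 1 (others 123 to 126). In untreated transgenic wall, Slc30a10 was at 7.219 CPM in replicate 2 (others 3.75 to 4.32). In DSS wall, Mt1 was at 118 CPM in control replicate 1 (others 307 to 324), and the ratio of Mt1 to Mt2 TPM was 3.051 in transgenic replicate 2 (others 1.91 to 2.1).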

How the results depend on the processing

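The number of members called was within 1.5 times of the reported one in 170 of 179 alternatives, all planned. For genotype in epithelial cells it was 0, and 1 with DESeq2, 3 with voom, 2 without control replicate 3 and transgenic replicate 1 together, and 0 to 1 when single libraries were left out (1 without control replicate 3). For genotype in untreated wall voom gave 1. The counts over all genes under the same settings are given below. For DSS in transgenic wall it was 1 to 3 when single libraries were left out, 1 without untreated replicate 1 or 2 or DSS replicate 1 or 2, and 3 without DSS replicate 4. The cause was not tested.

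The direction of Slc30a10 depended on the processing. Between epithelial cells and untreated wall its log2 difference of 0.40 was -1.48 in voom, -0.35 on log2 TPM, -1.58 without epithelial control 3 and transgenic 1, and -0.87 to 0.6 with single libraries left out (negative without control 3 or transgenic 1). For genotype in epithelial cells leaving out single libraries gave -0.42 to 3.47. Of 576 values of members under alternatives, 540 kept direction and side of the threshold, 18 newly passed, 12 no longer passed and 6 changed sign. Of 789 values of the other named list genes, 675 kept both and 114 no longer passed.

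Counts over all genes moved more, so the background shares depend on the tool and library. For genotype in untreated wall 36 genes became 235 with DESeq2, 2491 with voom, 5 on log2 TPM, 10 with only the groups compared, 404 among libraries of the first identifier prefix and 19 with the prefix as a term. Single libraries left out gave 5 to 320: 320 without control 4, 122 without transgenic 4, and 5 to 9 without control 1, 2 or 3 or transgenic 1 or 3. The count without transgenic 2 also lay within 5 to 320. For genotype in DSS wall 15 became 43 with DESeq2, 0 with voom and within the prefix, and 0 to 36 with single libraries left out, 36 without transgenic 1 and 0 to 7 without any other. The average over treatments, 44, became 105 with DESeq2, 204 with voom, 11 within the prefix and 24 to 73 with libraries left out. For genotype in epithelial cells 0 became 215 with DESeq2, 1292 with voom, 1 on log2 TPM, 835 without control 3 and transgenic 1, and 0 to 24 with single libraries left out. For DSS by genotype, 0 became 40 with DESeq2, 113 with voom, 98 within the prefix and 0 to 93 with libraries left out. That of the genotype effect between tissues, 0, became 66 with DESeq2, 827 with voom, 1 on log2 TPM, 5 within the prefix, 70 without the same 2 epithelial libraries and 0 to 12 with libraries left out. DSS in control wall, 6300, became 9501 with voom.

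With the replicate number as a block, the count of members called was the same in each comparison, and the counts over all genes were 7, 0 and 29 for genotype in untreated wall, in DSS wall and averaged. Deviations of same-numbered libraries correlated at -0.34 to 0.3 over 28 pairs, so the numbers were not taken to pair the samples. Depth limits Slc30a10 most, at 5 to 1106 counts per library.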
